A study of Mus musculus with 31 samples.

Results

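Brains of 5 mice taken 3 h after a tail-vein injection were compared, 3 from mice given oleic acid and 2 from mice given physiological serum. They were chosen by the treatment and time in their sample titles, out of 31 brains in the series, and each brain was measured on 1 Agilent array. All 31 mice were female, of the strain C57BL/6 and 6 weeks old, and all were anaesthetised with xylazine and ketamine. The injected volume was 200 µl in both groups, and the labels give the oleic acid dose as 1.2 µl per g of body weight. The serum mice thus carried the same anaesthetic and the same injection, and no uninjected mouse enters the comparison. Pooling of brains is not mentioned, and perfusion of the brains is not given in the sources used here. The other 26 arrays, from brains taken at 1, 1.5, 4, 18 and 24 h, were used to estimate the spread between mice and to compare times.

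Oleic acid given into a vein reaches the lung first, injures the walls of its small vessels and lets fluid into the air spaces, and is used in animals as a model of acute lung injury. Injured tissue releases cytokines into the blood, which act on the endothelium of brain vessels and on glia through the transcription factors NF-kB and STAT3. Transcripts that respond within hours include feedback inhibitors of these pathways, targets of the glucocorticoid receptor and the immediate early genes, which neurons and vessel cells transcribe soon after a stimulus. The comparison asks how brain transcripts of such kinds stood at 3 h in mice given oleic acid relative to mice given serum.

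Each value is the log2 of a gene's Cy3 brightness minus that array's 75th percentile, here called its log2 signal. Differences are oleic acid minus serum, and ± is the standard error (SE) of limma, a linear model fitted to each gene over all 31 arrays. Signals of different genes come from different probes and were not set against each other. The 75th percentile of processed intensity was 524, 767 and 653 on the oleic acid arrays, against 422 and 501 on the serum arrays, so each oleic acid array was brighter than each serum array. The share of spots well above background was 62.1%, 64.6% and 61.7% on the oleic acid arrays, against 59.9% and 60.7% on the serum arrays, and the part of these gaps in the results was not tested. Oleic acid replicates 1 and 2 and both serum replicates lay on 1 slide, called slide 3, and oleic acid replicate 3 lay on slide 4. All 19 markers checked for neurons, astrocytes, oligodendrocytes, microglia and endothelium were above background on all 5 arrays. Of 15 markers of blood leukocytes, liver, lung, muscle and pituitary, 10 were above background on all 5 as well.

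No gene passed limma's test of oleic acid against serum at 3 h (adjusted p under 0.05, Benjamini-Hochberg), which is 0.0% of 25300 genes and unnamed transcripts. An unadjusted p under 0.05 was found for 1219 of them, or 4.82%, against 1265 that chance alone gives, and the smallest adjusted p was 0.081. Of the 1219, 747 were higher (2.95% of all tested) and 472 were lower (1.87%) in oleic acid brains. The 3 oleic acid arrays all lay above both serum arrays for 9.99% of genes and all below them for 7.69%. Oleic acid brains had the higher mean for 53.6% of genes and the lower mean for 46.4%, with a median difference of 0.02. The share with the higher mean was 40.2% after normexp background correction, 68.7% after scaling arrays to their medians and 43.4% with no filter on dim probes, and the median difference was -0.07 after normexp correction and 0.13 after median scaling, so list medians are read against it. For a single gene the exact permutation test over these 5 arrays has 10 relabellings and cannot go below p = 0.2 (2-sided), the value it gave for every gene below whose groups did not overlap. The limma p-values measure the spread between brains within the groups of all 31 arrays, not that of the 5 at 3 h alone. They measure no other source of spread.

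Red cell transcripts had the largest median difference of the gene lists examined, and they were lower in oleic acid brains. Of 13 measured genes of haemoglobin, haem synthesis and the red cell membrane, 11 had the lower mean in oleic acid brains, against 46.4% of all genes. For 8 the oleic acid arrays lay all below the serum arrays, against 7.69% of all genes. Lower with an unadjusted p under 0.05 were 7, against 1.87% of all genes. The median difference of the 13 was -1.09, against 0.02 for all genes. None passed the adjusted test. Such transcripts are known from young red cells in the blood, and in whole brain fewer such cells and less RNA per cell cannot be told apart.

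The start regions of 5 of these genes are shown because their transcripts lay lower together, each in every oleic acid array. Each is 300 bases around the RefSeq start, most of them before it, on the gene's own strand, build GRCm38.p6, and capitals mark GATAA, the core letters bound by the red cell factor GATA1, and CACCC, those bound by KLF1, on either strand. The regions are Hba-a1 at chr11:32283422-32283721 on the plus strand, Hba-a2 at chr11:32296242-32296541 on the plus strand, Hbb-bs at chr7:103827879-103828178 on the minus strand, Hbb-bt at chr7:103813874-103814173 on the minus strand and Alas2 at chrX:150547167-150547466 on the plus strand.
Hba-a1: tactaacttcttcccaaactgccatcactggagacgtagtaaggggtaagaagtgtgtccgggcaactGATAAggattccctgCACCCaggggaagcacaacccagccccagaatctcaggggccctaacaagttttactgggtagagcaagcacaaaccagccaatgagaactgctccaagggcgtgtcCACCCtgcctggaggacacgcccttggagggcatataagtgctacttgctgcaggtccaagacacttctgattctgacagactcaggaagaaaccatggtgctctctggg
Hba-a2: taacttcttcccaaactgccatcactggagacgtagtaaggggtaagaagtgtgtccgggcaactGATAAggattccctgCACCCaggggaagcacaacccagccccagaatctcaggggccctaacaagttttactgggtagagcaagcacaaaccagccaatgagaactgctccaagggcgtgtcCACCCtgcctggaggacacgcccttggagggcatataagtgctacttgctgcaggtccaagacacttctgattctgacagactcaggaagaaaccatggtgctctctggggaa
Hbb-bs: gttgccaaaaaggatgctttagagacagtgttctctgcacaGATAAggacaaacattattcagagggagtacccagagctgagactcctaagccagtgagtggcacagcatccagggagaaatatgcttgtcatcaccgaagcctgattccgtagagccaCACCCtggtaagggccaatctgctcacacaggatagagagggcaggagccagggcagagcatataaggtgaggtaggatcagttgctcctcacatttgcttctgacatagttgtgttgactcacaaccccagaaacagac
Hbb-bt: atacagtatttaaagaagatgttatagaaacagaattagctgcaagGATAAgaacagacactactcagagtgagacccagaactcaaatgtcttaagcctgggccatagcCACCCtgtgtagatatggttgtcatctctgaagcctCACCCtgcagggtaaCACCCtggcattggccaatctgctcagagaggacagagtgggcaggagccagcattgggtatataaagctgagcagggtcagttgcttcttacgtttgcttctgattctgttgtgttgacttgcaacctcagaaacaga
Alas2: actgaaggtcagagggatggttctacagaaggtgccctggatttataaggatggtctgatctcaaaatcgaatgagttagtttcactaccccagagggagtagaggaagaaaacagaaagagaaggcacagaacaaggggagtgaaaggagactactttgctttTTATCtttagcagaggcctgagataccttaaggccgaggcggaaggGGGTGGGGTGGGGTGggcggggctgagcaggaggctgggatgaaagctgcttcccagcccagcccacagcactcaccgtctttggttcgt
All 5 held GATAA once and CACCC 1 to 3 times, in Alas2 on the reverse strand (TTATC and GGGTG). Over 27025 RefSeq start regions of the same length, 25.8% held GATAA, 56.7% held CACCC and 12.6% held both. The Hba-a1 and Hba-a2 regions shared an unbroken run of 297 identical bases. A match is a description of these letters, not a site shown to be used.

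Among the beta globins, Hbb-bs, which encodes an adult beta chain, had log2 signals of 1.29, 1.36 and 1.23 in oleic acid brains, against 2.98 and 3.25 in serum brains. The 3 oleic acid values lay close together and all below the serum values, by a difference of -1.82 ± 0.42, or 3.54-fold lower (limma adjusted p = 0.559). Hbb-b2, listed in the array annotation as another adult beta chain, had 2.29, 2.69 and 2.47 in oleic acid brains, against 3.42 and 4.16 in serum brains, a difference of -1.31 ± 0.38. Hbb-bt, the other beta chain of this strain's locus, had 3.93, 4.70 and 4.63 in oleic acid brains, against 5.16 and 6.16 in serum brains, a difference of -1.24 ± 0.41. Globin genes are near copies of each other, so a probe of one may also bind RNA of another.

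The alpha globins differed by similar amounts. Hba-a1 had log2 signals of 5.98, 6.11 and 6.25 in oleic acid brains, against 6.94 and 7.82 in serum brains (-1.26 ± 0.39). Hba-a2 had 7.37, 7.66 and 7.80 in oleic acid brains, against 8.32 and 9.07 in serum brains (-1.09 ± 0.35). For both alpha globins and for all 3 beta globins serum replicate 2 was the highest of the 5 arrays, and serum replicate 1 was the second highest.

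Alas2, whose enzyme starts haem synthesis in red cell precursors, had log2 signals of -0.28, 0.16 and 0.21 in oleic acid brains, against 0.94 and 1.76 in serum brains, a difference of -1.32 ± 0.40. Ahsp, a chaperone of free alpha globin, differed by -1.41 ± 0.62 and exceeded background in 1 of 3 oleic acid brains and 2 of 2 serum brains. Slc4a1, the anion exchanger of the red cell membrane, had -3.97, -3.78 and -3.69 in oleic acid brains, against -3.18 and -2.79 in serum brains (-0.83 ± 0.41). The other 5 members, which include Fech, Bpgm, Slc25a37 and Tfrc and which brain cells also transcribe, overlapped between groups and differed by -0.14 to 0.13. Ahsp, Slc4a1 and these 4 fall outside the naming rule and were picked with their values in view. The list's median was -1.18 on the 4 arrays of slide 3, -0.71 without serum replicate 2, -0.63 after normexp background correction and -0.45 in the authors' deposited value table.

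**Figure D1:**
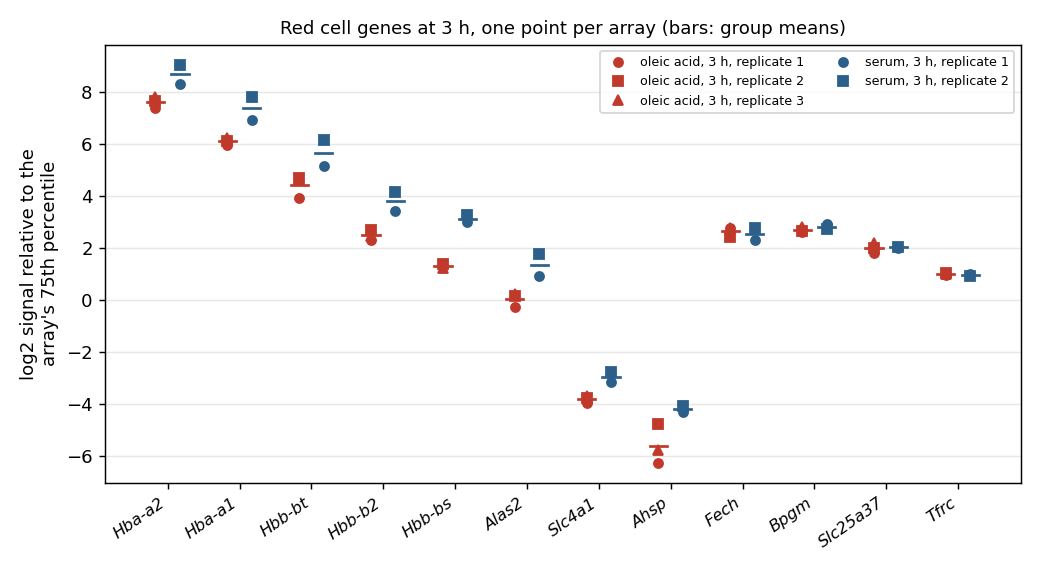
Log2 signal relative to the array's 75th percentile (vertical axis) of 12 of the 13 measured red cell genes at 3 h, with 1 point per array, oleic acid in red left of serum in blue, and bars at the group means. For 8 genes, from Hba-a2 to Ahsp, all 3 oleic acid points lie below both serum points, and for the 4 on the right the groups overlap.

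Against the other times, the serum mean at 3 h was the highest of the 12 group means for 7 of the 13 red cell genes, and the oleic acid mean at 3 h was the lowest for 1. Hbb-bs averaged 1.29 in oleic acid brains at 3 h, within the 0.52 to 2.03 of oleic acid groups at the other 5 times, and 3.12 in serum brains at 3 h, above the 1.21 to 1.89 of the other serum groups. Hba-a1 averaged 6.11 in oleic acid brains at 3 h, eighth of the 12 groups from the top, and 7.38 in serum brains at 3 h, above the 6.21 to 6.83 of the other serum groups. Alas2 averaged 0.03 in oleic acid brains at 3 h and 1.35 in serum brains at 3 h, where the other serum groups lay between 0.22 and 0.73. Of the 7 red cell genes with an unadjusted p under 0.05, the serum mean at 3 h was the highest of the 12 group means for 6, and the oleic acid mean at 3 h was the lowest for 0. The exception was Ahsp. It averaged -5.62 in oleic acid brains at 3 h, next to the lowest of 12, and -4.20 in serum brains, next to the highest. Slc4a1 was not among these 7. Its oleic acid mean at 3 h, -3.82, was the lowest of 12, below the -3.59 to -3.30 of the other oleic acid groups. Its serum mean at 3 h was the highest of 12. A group of 2 arrays has a less certain mean than 1 of 3.

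A similar count was made over the genes with small p-values. Of the 747 higher genes, the serum mean at 3 h was the lowest of 12 for 67.2%, and the oleic acid mean at 3 h was the highest for 10.2%. Of the 472 lower genes, the oleic acid mean was the lowest for 14.8%, and the serum mean was the highest for 67.6%. Over all 25300 genes the oleic acid mean at 3 h was the highest for 3.42% and the lowest for 3.87%, against 8.86% and 12% for the serum mean. Choosing genes by a difference within 3 h makes one of its groups stand out, so these shares are a description without a test.

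Of the 10 higher genes with the smallest p among those with separate groups and signal above background on all 5 arrays, Midn and Map4k5 had the smallest. Among the genes above background on all 5 arrays, the groups were separate with oleic acid higher for 10.1% and lower for 7.3%. Midn, the midnolin gene, whose protein carries targets to the proteasome, had log2 signals of 1.83, 1.73 and 1.87 in oleic acid brains, against 1.28 and 0.19 in serum brains, a difference of 1.07 ± 0.22 or 2.11-fold higher (limma adjusted p = 0.348). The oleic acid arrays lay close together, whereas serum replicate 2 lay far below serum replicate 1, and the difference was 0.53 without serum replicate 2 and 1.62 without serum replicate 1. Map4k5, a kinase of the stress-activated JNK cascade, had 2.01, 2.15 and 2.35 in oleic acid brains, against 1.67 and 1.14 in serum brains, a difference of 0.76 ± 0.16 (limma adjusted p = 0.348). Both serum arrays of Map4k5 were below all 3 oleic acid arrays, and the difference was 0.50 without serum replicate 2.

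Pmpcb, a subunit of the protease that trims proteins imported into mitochondria, had 2.81, 2.79 and 2.92 in oleic acid brains, against 2.45 and 2.48 in serum brains. Its difference of 0.37 ± 0.09 was small, but both groups were tight. Others among the 10 were Col4a5, a collagen of basement membranes, at 0.61, Il10rb, a receptor chain for interleukin 10, at 0.45, the helicase gene Ddx31 at 0.41, the peptidase gene Tpp2 at 0.47, the kinase gene Nek5 at 0.65 and Abtb2 at 0.45. After normexp background correction, Col4a5 was at 0.19 and Nek5 at 0.11. Without serum replicate 1, Tpp2 was at 0.23 and Nek5 at 0.34. For 9 of the 10 higher genes the serum mean at 3 h was the lowest of the 12 group means, and for 1 of them, Midn, the oleic acid mean was the highest.

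The 10 lower genes chosen in the same way included Hbb-bs, Hbb-b2 and Alas2. Cited2, a transcriptional regulator that competes with HIF-1 for its coactivator, had log2 signals of 1.2, 1.45 and 1.08 in oleic acid brains, against 2.16 and 1.70 in serum brains, a difference of -0.69 ± 0.18 (limma adjusted p = 0.818). A second probe of Cited2 differed by only -0.08, so the gene's probes disagree, and the first was at -0.46 without serum replicate 1. Ube2l6, the enzyme that attaches the interferon-induced modifier ISG15, had 0.04, 0.12 and -0.12 in oleic acid brains, against 0.45 and 0.54 in serum brains, a difference of -0.48 ± 0.12. Both serum arrays were higher than all oleic acid arrays, in the direction opposite to most interferon-stimulated genes. The remaining 5 were the hair keratin-associated gene Krtap31-1 at -0.90, Fam189a2 at -0.56, Paqr3, a Golgi protein that holds back Raf, at -0.70, the lactate dehydrogenase-like gene Ldhal6b at -0.94 and Bicdl1 at -0.86, or -0.44 without serum replicate 2.

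Some genes were above background in 1 treatment only, so that their difference has a lower bound. Txlnb, a muscle taxilin, exceeded background in 3 of 3 oleic acid brains and 0 of 2 serum brains, and was at least 1.95-fold higher (limma adjusted p = 0.081). The bound sets the oleic acid mean against the lowest signal well above background on the serum arrays, or the gene's own signal there if that was higher. Fam186b was at least 1.85-fold higher and Ect2, a regulator of cell division, at least 1.19-fold higher. In the other direction, exceeding background in 0 of 3 oleic acid brains and 2 of 2 serum brains, Lrrc26 was at least 2.90-fold lower and the olfactory receptor genes Olfr1417 and Olfr1506 at least 2.29-fold and 2.14-fold lower. After normexp background correction the difference of Txlnb was 0.07, and those of Ect2 and Fam186b turned to -0.14 each, so the direction of these dim genes depends on the background correction.

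Immediate early genes were mostly higher in oleic acid brains, by small amounts. Of 41 measured members, 31 had the higher mean in oleic acid brains, with a median difference of 0.25, against 53.6% and 0.02 for all genes. All 3 oleic acid arrays lay above both serum arrays for 14 members, against 9.99% of all genes, and below them for 0. An unadjusted p under 0.05 was found for 4 higher members and 1 lower member, against 2.95% and 1.87% of all genes. None passed the adjusted test. The lower member was Jund, a subunit of the transcription factor AP-1, at -0.34 ± 0.16 with overlapping groups, named after its values were seen.

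The 4 higher members were zinc finger transcription factors. Klf4, which vessel endothelium transcribes under flow and in inflammation, had log2 signals of 0.18, 0.34 and 0.78 in oleic acid brains, against -0.24 and -0.26 in serum brains, a difference of 0.68 ± 0.20 (limma adjusted p = 0.939). Its oleic acid mean at 3 h, 0.43, was the highest of the 12 group means, where the other 11 lay between -0.81 and 0.14. Klf2, its relative in endothelium, had 0.88, 0.55 and 1.55 in oleic acid brains, against 0.30 and 0.28 in serum brains (0.70 ± 0.30).

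Klf10, which responds to TGF-beta, had 1.32, 1.13 and 1.61 in oleic acid brains, against 0.60 and 0.95 in serum brains (0.58 ± 0.22). Egr1, which neurons transcribe on firing, had 3.92, 3.75 and 4.65 in oleic acid brains, against 3.37 and 3.64 in serum brains (0.60 ± 0.29). In each of these 4 genes the groups did not overlap, and oleic acid replicate 3, the array on slide 4, was the highest of the 5.

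The classical activity markers differed less clearly. Fos, the other main subunit of AP-1, had 0.14, 0.29 and 1.03 in oleic acid brains, against -0.05 and -0.10 in serum brains (0.57 ± 0.35). Dusp1, a phosphatase that switches off MAP kinases and is also a glucocorticoid target, had 1.07, 0.99 and 1.52 in oleic acid brains, against 0.87 and 0.72 in serum brains (0.40 ± 0.27) and was named after its values were seen. Nr4a1, an orphan nuclear receptor, had 4.61, 4.29 and 5.26 in oleic acid brains, against 4.20 and 4.32 in serum brains, and its groups overlapped. Npas4, which is specific to active neurons, had 1.47, 1.11 and 2.02 in oleic acid brains, against 1.38 and 1.18 in serum brains, and its groups overlapped too.

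The RefSeq start regions of Fos at chr12:85473640-85473939 on the plus strand and Dusp1 at chr17:26508423-26508722 on the minus strand are shown because both genes are textbook targets of CREB, and capitals mark TGACG, the core letters of its site, on either strand (GRCm38.p6, the same 300-base window).
Fos: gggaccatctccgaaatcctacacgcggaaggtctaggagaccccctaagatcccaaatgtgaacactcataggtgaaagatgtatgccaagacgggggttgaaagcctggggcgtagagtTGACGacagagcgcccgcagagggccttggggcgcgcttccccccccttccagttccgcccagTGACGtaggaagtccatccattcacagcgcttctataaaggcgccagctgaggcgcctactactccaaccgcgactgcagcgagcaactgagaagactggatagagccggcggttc
Dusp1: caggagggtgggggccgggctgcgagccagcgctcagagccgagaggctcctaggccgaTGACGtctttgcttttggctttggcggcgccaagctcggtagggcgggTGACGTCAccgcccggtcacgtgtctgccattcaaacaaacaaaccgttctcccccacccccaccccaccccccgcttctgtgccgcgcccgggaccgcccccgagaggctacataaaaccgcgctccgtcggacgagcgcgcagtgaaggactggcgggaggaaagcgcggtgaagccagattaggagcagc
Fos held TGACG 2 times and Dusp1 3 times, counting the palindrome TGACGTCA in Dusp1 once on each strand, and 21% of the 27025 start regions held it at least once. The letters are a description and say nothing of whether CREB acted at 3 h.

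Without oleic acid replicate 3, which leaves the 4 arrays of slide 3, the immediate early median was 0.13 and 29 of 41 members were still higher. The differences of Fos, Egr1 and Klf2 were then smaller, and over all single arrays left out they ranged from 0.30 to 0.74 for Fos, from 0.33 to 0.78 for Egr1 and from 0.42 to 0.92 for Klf2.

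**Figure D2:**
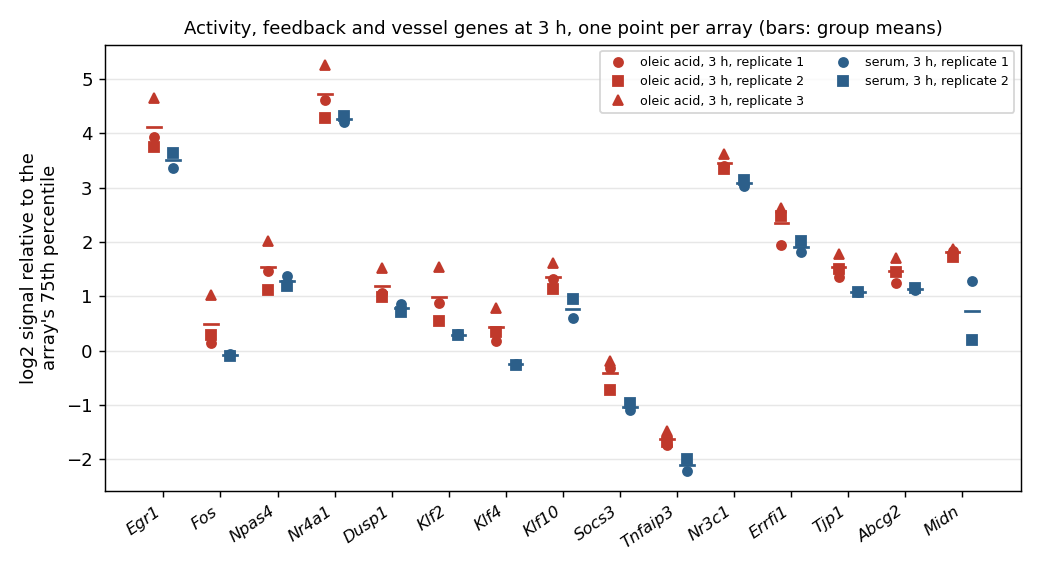
Log2 signal relative to the array's 75th percentile (vertical axis) of 15 activity, feedback, glucocorticoid and vessel genes at 3 h, with 1 point per array, oleic acid in red left of serum in blue, and bars at the group means. Oleic acid replicate 3, the triangle, is the highest oleic acid array in all 15, and in Midn serum replicate 2 lies at 0.19, well below the other 4 arrays.

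Glucocorticoid-responsive genes were also mostly higher, in 32 of 36 measured members, at a median of 0.20. Of the 36, 3 had an unadjusted p under 0.05, against 4.82% of all genes. The groups did not overlap for 5 higher members and 1 lower member, against 9.99% and 7.69% of all genes. Nr3c1, the glucocorticoid receptor itself, had log2 signals of 3.40, 3.34 and 3.62 in oleic acid brains, against 3.03 and 3.14 in serum brains (0.37 ± 0.16). Errfi1, which restrains the EGF receptor, differed by 0.43 ± 0.20, and Bcl6, a transcriptional repressor, by 0.46 ± 0.22.

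Strong glucocorticoid targets were higher with overlapping groups. Sgk1, a kinase that controls sodium channels, had 2.57, 3.60 and 3.75 in oleic acid brains, against 2.50 and 3.20 in serum brains (0.46 ± 0.38). Fkbp5, a cochaperone of the receptor, differed by 0.24 ± 0.28, and Tsc22d3, which encodes the anti-inflammatory protein GILZ, by 0.33 ± 0.26. The metallothionein gene Mt2, which the receptor and metals induce, differed by 0.15 ± 0.20. The list's median was 0.11 on the 4 arrays of slide 3, 0.08 without serum replicate 1, 0.33 without oleic acid replicate 1 and 0.34 without serum replicate 2, so its size depends on which array is kept.

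Clock output genes shared part of this pattern. Per1, a clock gene that glucocorticoids also induce, had 4.69, 4.66 and 5.20 in oleic acid brains, against 4.49 and 4.57 in serum brains (0.32 ± 0.24), and Dbp, a clock output factor, differed by 0.28 ± 0.23. Of 10 clock output genes 8 were higher, at a median of 0.17, and of 15 core clock genes 7 were higher, at a median of -0.01.

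Several inflammatory ligands were low in signal, and their differences were uncertain. Of 21 measured cytokines and chemokines 13 were higher, with a median of 0.22. Against 4.82% of all genes, 1 had an unadjusted p under 0.05. That was Il33, an alarmin of astrocytes and oligodendrocytes, at 0.72, 1.2 and 1.24 in oleic acid brains, against 0.16 and 0.70 in serum brains (0.62 ± 0.28). Tnf and Il6, the classical early cytokines, were not well above background in enough arrays to be kept.

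Il1b, which encodes interleukin 1 beta, had -4.98, -5.42 and -4.45 in oleic acid brains, against -5.34 and -5.72 in serum brains (0.58 ± 0.33), with overlapping groups. Ccl2, which draws monocytes, had -1.49, -1.94 and -2.41 in oleic acid brains, against -2.83 and -2.13 in serum brains (0.53 ± 0.53). Cxcl10, an interferon-induced chemokine, differed by 0.67 ± 0.47. Ccl7, a relative of Ccl2, exceeded background in 3 of 3 oleic acid brains and 0 of 2 serum brains. It differed by 1.40, or 2.64-fold, computed with its own serum signals, so this is no lower bound. The difference ranged from 1.21 to 1.69 with single arrays left out.

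The values of Il1b, Ccl3, Ccl7 and Icam1 lay near background, whereas 17 of the 21 measured cytokines and chemokines were above background on all 5 arrays. With normexp background correction the list's median was -0.05, against -0.07 for all genes. Il1b then differed by -0.27, Ccl3 by -0.09 and Icam1 by -0.24. Ccl3, a macrophage chemokine, had differed by 0.87 ± 0.45 with 1 of 2 serum arrays above background.

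Among feedback inhibitors of cytokine signalling, none passed the adjusted test, and Socs3 and Tnfaip3 had separate groups. Socs3, which blocks STAT3 signalling, had log2 signals of -0.32, -0.73 and -0.19 in oleic acid brains, against -1.09 and -0.96 in serum brains, a difference of 0.61 ± 0.19 or 1.53-fold higher (limma adjusted p = 0.939). Its oleic acid mean at 3 h, -0.41, was the highest of the 12 group means, where the other 11 lay between -1.37 and -0.81. Tnfaip3, which encodes the NF-kB inhibitor A20, had -1.74, -1.69 and -1.47 in oleic acid brains, against -2.21 and -1.99 in serum brains (0.46 ± 0.15), and here the serum mean at 3 h was the lowest of 12. After normexp background correction Socs3 was at 0.45 and Tnfaip3 at 0.24.

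Nfkbia, the inhibitor that NF-kB induces to shut itself off, had 3.45, 3.72 and 3.93 in oleic acid brains, against 3.17 and 3.71 in serum brains (0.26 ± 0.24), and its difference was -0.01 without serum replicate 1. Ptgs2, the inducible prostaglandin synthase behind fever, had -2.88, -3.04 and -2.26 in oleic acid brains, against -3.14 and -3.08 in serum brains (0.39 ± 0.24). Of 19 measured NF-kB feedback genes 13 were higher, at a median of 0.16, or -0.01 without serum replicate 1. After normexp correction the list's median was -0.09, against -0.07 for all genes.

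Of 24 measured STAT3 and acute-phase genes 19 were higher, at a median of 0.21. Against 4.82% of all genes, 3 had an unadjusted p under 0.05. They were Socs3, Bcl6 and Vcam1, the leukocyte adhesion molecule of endothelium, which differed by 0.25 ± 0.12. Lifr, the receptor of leukaemia inhibitory factor, differed by 0.45 ± 0.22 with overlapping groups. After normexp correction the list's median was -0.02, against -0.07 for all genes. Of 34 interferon-stimulated genes 26 were higher, at a median of 0.15. Groups were separate for 10, all with oleic acid higher, against 9.99% of all genes. Trim30d differed by 0.92 ± 0.21 but was above background on only 1 of 2 serum arrays and differed by -0.0016 after normexp correction, whereas Ifi27, at a bright signal, had 3.79, 3.70 and 3.87 in oleic acid brains, against 3.29 and 3.63 in serum brains (0.32 ± 0.14). Ifih1, a sensor of double-stranded RNA, differed by 0.40 ± 0.20. The interferon list's median was 0.01 after normexp correction, against -0.07 for all genes.

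Leukocyte transcripts differed by list. Of 15 neutrophil and monocyte genes 9 were higher and 6 lower, at a median of 0.02. None had separate groups, against 17.7% of all genes. Of 11 lymphocyte and platelet genes 2 were higher and 9 lower, at a median of -0.16, or -0.016 without oleic acid replicate 2. Of these 11, 0 had an unadjusted p under 0.05, against 4.82% of all genes. S100a8, a subunit of calprotectin from neutrophils, had log2 signals of -1.67, -0.92 and -0.67 in oleic acid brains, against -1.43 and -0.75 in serum brains, a difference of 0.00 ± 0.49. S100a9, its partner, differed by -0.05 ± 0.46. The SE allows differences of either sign, and these values do not show that the groups were alike.

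Among vessel genes, Tjp1, which encodes the tight junction scaffold ZO-1, had 1.36, 1.5 and 1.78 in oleic acid brains, against 1.08 and 1.07 in serum brains (0.47 ± 0.15). Abcg2, an efflux pump of brain capillaries, had 1.24, 1.44 and 1.70 in oleic acid brains, against 1.12 and 1.16 in serum brains (0.32 ± 0.13). Slc2a1, the glucose carrier of the barrier, differed by 0.31 ± 0.21 with overlapping groups. Flt1, a VEGF receptor, differed by 0.15 ± 0.15 with its brightest probe and by -1.18 with its other probe. Of 18 endothelial and barrier genes 14 were higher, at a median of 0.11, or 0.03 without oleic acid replicate 3. Icam1, the adhesion molecule for neutrophils, exceeded background in 3 of 3 oleic acid brains and 0 of 2 serum brains, yet its groups overlapped.

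**Figure D3:**
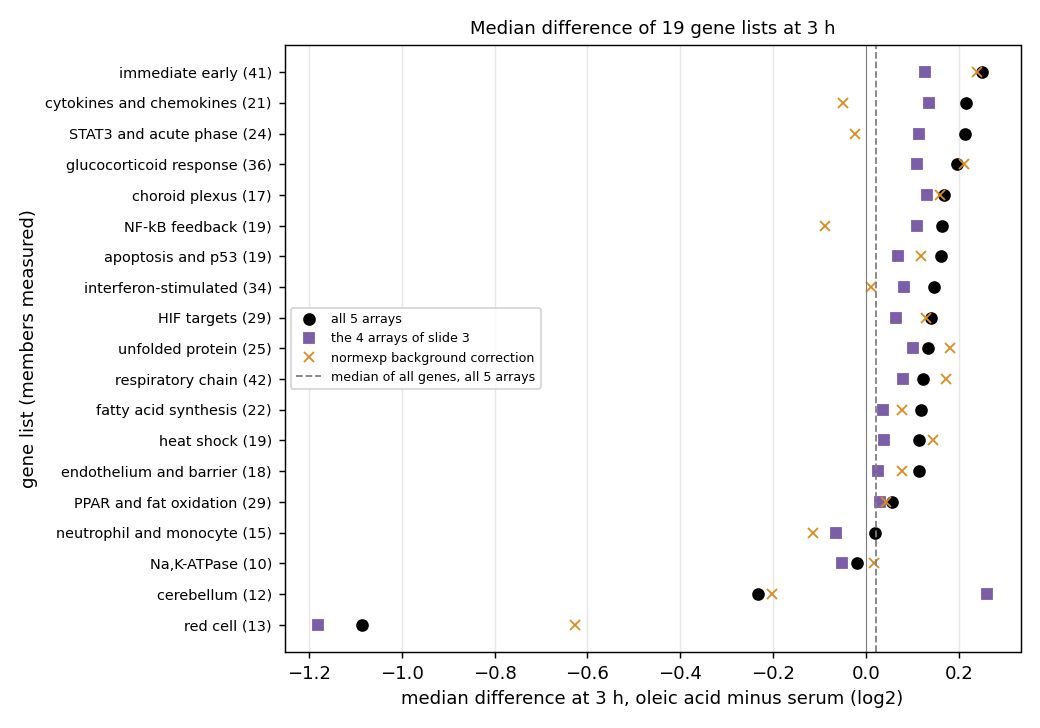
Median log2 difference at 3 h, oleic acid minus serum (horizontal axis), of 19 gene lists with the number of measured members in brackets, from all 5 arrays (circles), the 4 arrays of slide 3 (squares) and normexp background correction (crosses), with a dashed line at the median of all genes. The red cell list lies at -1.09, -1.18 and -0.63, and most other lists lie between 0 and 0.25. Normexp correction takes the cytokine, NF-kB, STAT3 and neutrophil lists below 0, and the median of all genes to -0.07.

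Genes of fat handling were described in 4 lists, with medians of 0.01 to 0.12. Of 29 targets of the fatty acid receptor PPAR and genes of fat oxidation 18 were higher and 11 lower, at a median of 0.06. Of the 29, 0 had an unadjusted p under 0.05, against 4.82% of all genes. Pdk4, which spares glucose when fat is burned, had -1.21, -0.95 and -0.93 in oleic acid brains, against -1.43 and -1.05 in serum brains (0.21 ± 0.18). Angptl4, a lipase inhibitor that fatty acids induce through PPAR, had 0.78, 1.54 and 1.03 in oleic acid brains, against 0.82 and 1.66 in serum brains (-0.12 ± 0.32). Cpt1a, which admits fatty acids to mitochondria, differed by 0.15 ± 0.11 with its brightest probe and by -0.22 with its other probe.

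Of 24 genes of fatty acid uptake and binding 18 were higher and 6 lower, at a median of 0.11, or 0.014 without serum replicate 1 and 0.047 without oleic acid replicate 3. Among the lower ones, Slc27a4, a fatty acid transport protein, had -2.40, -2.53 and -2.79 in oleic acid brains, against -1.95 and -2.07 in serum brains (-0.56 ± 0.25), and Slc27a1, the transporter of that family found in brain endothelium, differed by -0.48 ± 0.26. Lss, the lanosterol synthase of the cholesterol pathway, had -1.35, -1.44 and -1.74 in oleic acid brains, against -0.57 and -1.27 in serum brains (-0.59 ± 0.20), and Dhcr7, which makes cholesterol in the last step, differed by -0.63 ± 0.29. Serum replicate 1 was the highest array for both, and without it Lss differed by -0.24 and Dhcr7 by -0.074. Of 26 cholesterol genes 12 were lower, at a median of 0.01.

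Enzymes that make and desaturate fatty acids were near 0 or slightly higher. Elovl6, which elongates palmitate, had 2.45, 2.44 and 2.75 in oleic acid brains, against 2.20 and 2.33 in serum brains (0.28 ± 0.11). Scd1, a desaturase that makes oleic acid, had 2.72, 2.77 and 2.52 in oleic acid brains, against 2.81 and 2.82 in serum brains (-0.15 ± 0.25), and Scd2, the main desaturase of brain, differed by 0.19 ± 0.09. Of 22 genes of this list 13 were higher and 9 lower, at a median of 0.12, or 0.0095 without serum replicate 1.

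Subunits of the sodium-potassium ATPase, the pump that oleic acid is known to inhibit in lung, did not lean either way. Of 10 measured subunits 5 were higher and 5 lower, at a median of -0.02. Aqp4, the water channel of astrocyte endfeet, differed by -0.12 ± 0.34, and Gfap, the astrocyte filament that rises in gliosis, by -0.02 ± 0.14.

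Mitochondrial and stress genes were slightly higher as lists. Of 42 respiratory chain and ATP synthase subunits 37 were higher, at a median of 0.12. Groups were separate for 8 higher members and 0 lower members, against 9.99% and 7.69% of all genes. Ndufs1, the largest subunit of complex I, had 4.84, 4.79 and 5.02 in oleic acid brains, against 4.48 and 4.77 in serum brains (0.26 ± 0.10). The list's median was 0.08 without oleic acid replicate 3, likewise without serum replicate 1, and 0.07 after quantile normalization. Ribosomal protein genes were higher in 26 of 30, at a median of 0.10, or 0.04 without oleic acid replicate 3. Of the 30, 0 had an unadjusted p under 0.05, against 4.82% of all genes.

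Of 25 genes of the unfolded protein response 20 were higher, at a median of 0.13, with the chaperone gene Canx, which encodes calnexin, at 0.27 ± 0.12 and Creld2 at 0.34 ± 0.15. Of 29 HIF targets 23 were higher, at a median of 0.14, with Bnip3, a mitophagy receptor induced by hypoxia, at 0.30 ± 0.12. Among 19 genes of apoptosis and p53, 14 were higher and 3 had an unadjusted p under 0.05, against 4.82% of all genes. The 3 were Mcl1, a survival factor, at 0.31 ± 0.12, Gadd45a, a DNA damage gene, at 0.45 ± 0.19 and Ccng1, a p53 target, at 0.31 ± 0.14. Heat shock genes were higher in 14 of 19, at a median of 0.11. Without oleic acid replicate 3 the medians were 0.064 for HIF targets, 0.069 for apoptosis and p53, where the median over all 5 arrays was 0.16, and 0.040 for heat shock genes. Dnaja1, a cochaperone, differed by 0.30 ± 0.11, and Hspa1a, the inducible HSP70, by -0.03 ± 0.19.

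Genes of brain cell types differed little. Medians were 0.02 for 16 neuron genes, 0.11 for 15 astrocyte genes, 0.12 for 18 microglia genes and 0.06 for 14 oligodendrocyte genes, against 0.02 for all genes. Among glutamate and GABA receptor subunits 14 of 22 were higher, with the metabotropic receptor Grm3 at 0.40 ± 0.16.

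Region and organ markers differed between brains of 1 group. The mean log2 signal of 12 cerebellum markers was 0.17, 2.01 and -0.14 in oleic acid brains, against -0.07 and 1.88 in serum brains, so that oleic acid replicate 2 and serum replicate 2 stood above the other 3. The median difference of these markers was -0.23, and it was -1.43 without serum replicate 1 and 0.88 without serum replicate 2. Choroid plexus markers had means of -0.26, 0.20 and 0.05 in oleic acid brains, against -0.41 and 0.09 in serum brains, and 15 of 17 were higher, at a median of 0.17, or -0.06 without serum replicate 1. A pair of lung genes stood out in oleic acid replicate 1. Sftpc, a surfactant protein, had 2.00, -0.90 and -0.20 in oleic acid brains, against -0.18 and -0.42 in serum brains. Scgb1a1, of airway club cells, had 2.17, -1.53 and -1.50 in oleic acid brains, against -0.44 and -1.52 in serum brains. The part of these differences between brains in the results above was not tested.

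**Figure D4:**
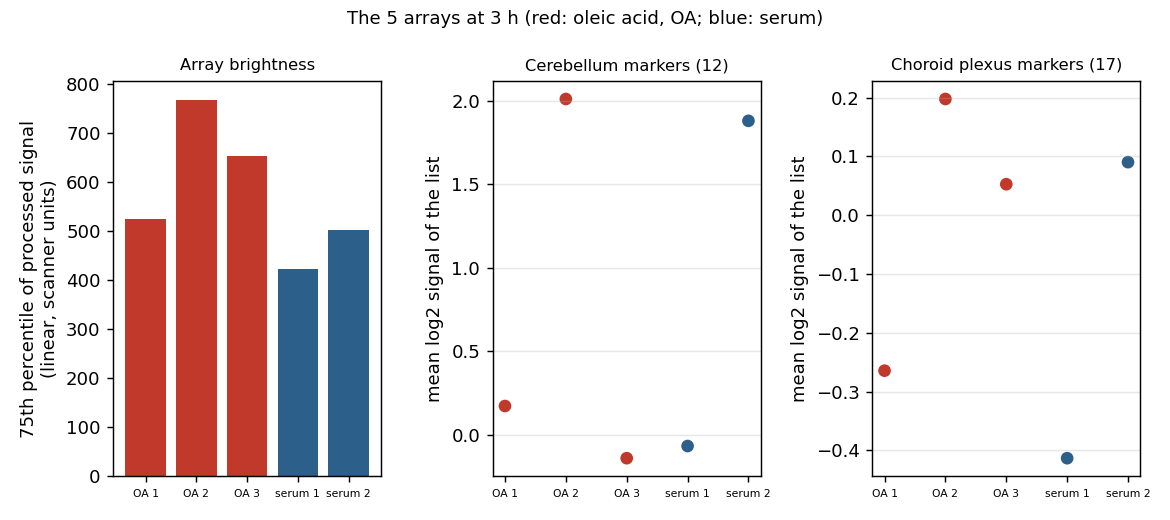
The 5 arrays at 3 h, oleic acid (OA) in red left of serum in blue: the 75th percentile of processed intensity in scanner units (left), and the mean log2 signal of 12 cerebellum markers (middle) and of 17 choroid plexus markers (right). Oleic acid arrays are brighter at 524 to 767, against 422 and 501 for serum, and the cerebellum markers lie near 2 on oleic acid replicate 2 and serum replicate 2 and near 0 on the other 3.

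The difference at 3 h was then tested against the difference at other times, each with its own serum mice. Scaling arrays to their medians moved the median of all genes from near 0 to 0.19 for the other times together, 0.21 for 1.5 h and 0.31 for 4 h, so list medians here are read against those shifts. Against the mean of the other 5 times no gene passed limma's adjusted test (0.0%), and 6.68% were higher and 3.45% lower at an unadjusted p under 0.05. Midn exceeded its mean difference at the other times by 1.25 ± 0.24 and Map4k5 by 0.88 ± 0.17 (limma adjusted p = 0.200 for each). Helz2, an interferon-induced helicase, exceeded it by 0.76 ± 0.15, and Ndufaf2, an assembly factor of complex I, by 0.61 ± 0.14. Genes picked by p for the contrasts with other times had to have separate groups at 3 h in the same direction. Their choice used the 3 h values that enter the contrasts, so their values are a description and no independent support.

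Against 1.5 h the contrast was wider, and no gene passed limma's adjusted test (0.0%), with 6.69% higher and 4.58% lower at an unadjusted p under 0.05. Immediate early genes had a median of 0.25 at 3 h, -0.30 at 1.5 h and 0.53 for the 3 h difference minus the 1.5 h difference, where 12 of 41 were higher and 1 lower at an unadjusted p under 0.05. Klf2 differed by 0.70 ± 0.30 at 3 h and by -1.11 at 1.5 h, a change of 1.81 ± 0.40 between the times (limma adjusted p = 0.211). Dusp1 differed by 0.40 at 3 h and by -0.89 at 1.5 h, a change of 1.29 ± 0.37 (limma adjusted p = 0.259). Glucocorticoid-responsive genes had a median of 0.37 for the same contrast, with 8 of 36 higher and 0 lower, and NF-kB feedback genes had 6 of 19 higher and 0 lower. Ccl2 went the other way, with 0.53 at 3 h and 1.71 at 1.5 h.

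Against 4 h, 2 unnamed transcripts passed limma's adjusted test, or 0.00791%, with 3.28% higher and 2.75% lower at an unadjusted p under 0.05, both above background on 0 of 3 oleic acid arrays at 3 h and 0 of 2 serum arrays at 4 h. Red cell genes had a median of -1.09 at 3 h and 0.09 at 4 h. Hbb-bs differed by -1.82 at 3 h and by 0.53 at 4 h, a change of -2.36 ± 0.60 between the times (limma adjusted p = 0.714). Cited2 differed by -0.69 at 3 h and by 0.30 at 4 h, and Pard3, a polarity scaffold of tight junctions, by 0.37 and by -0.47. Over the 6 times in order the red cell median was -1.25 at 1 h, -0.19 at 1.5 h, -1.09 at 3 h, 0.09 at 4 h, -0.47 at 18 h and -0.04 at 24 h. The glucocorticoid median was above 0 only at 3 h, at 0.20, and lay between -0.19 and -0.03 at the other times, and the respiratory chain median was 0.12 at 3 h and between -0.18 and -0.07 at the others.

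**Figure D5:**
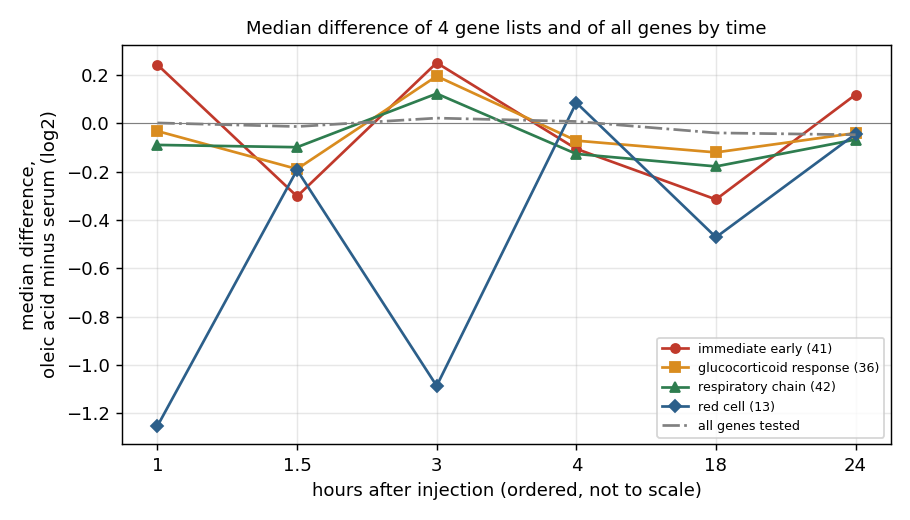
Median log2 difference, oleic acid minus serum (vertical axis), of 4 gene lists and of all genes tested at the 6 sampled times in hours after injection (horizontal axis, ordered and not to scale), with the number of measured members in brackets. At 3 h the immediate early, glucocorticoid and respiratory chain medians lie at 0.25, 0.20 and 0.12 and the red cell median at -1.09, while all genes stay between -0.05 and 0.02 at every time.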

How the data were processed

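Whole-brain RNA, 200 ng per mouse, was labelled with Cy3 and hybridised to 1-colour Agilent arrays, per the labels, each with 62976 spots in its file. Agilent Feature Extraction 10.5.1.1 produced the deposited intensity values, the processed signal after background subtraction, per the file headers and the submitters' processing notes. The authors also deposited a table of log2 values for the same arrays, used only as an alternative.

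From the processed intensities, log2 signals minus each array's 75th percentile were taken, control and outlier spots were left out, and a probe was kept if some group had it marked as above background throughout (35668 of 55681 probes) and if all 31 arrays measured it (35518). The brightest probe stood for a gene, giving 25300 genes. One mean per treatment and time, 12 in all, was fitted over the 31 arrays with limma 3.58.1 in R 4.3.3, with Benjamini-Hochberg adjustment. On data simulated for the 3 h comparison with each gene's mean and spread, and 200 of 25300 genes changed, 65% of 2-fold and 87% of 4-fold changes were recovered with 7 false calls. The simulation drew genes independently, without slide, brightness or background effects, so these shares may exceed what the real arrays allow. The precision is limited by 3 arrays against 2.

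Genes were named by rule: the 10 higher and 10 lower with the smallest p among those with separate groups and signal above background on all 5 arrays, the 3 each way with a lower bound and the smallest p, up to 4 members of each gene list with the smallest p, a preset panel and the 5 each way for each comparison with other times. For the comparisons with other times, genes had to have separate groups at 3 h in the same direction and signal above background on every array compared. Jund, Dusp1 and 6 red cell genes were added with their values in view. Results for some genes are not reported here. The members and the lists were chosen with earlier results of these data known. Alternatives were other background corrections, normalizations, filters, probe rules, slide and replicate blocks and leaving out each array. RefSeq start regions (GRCm38.p6) were matched by symbol.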

Additional observations from a re-analysis of the deposited data

Results flagged for a closer look

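For 2 unnamed transcripts the difference at 3 h and the difference at 4 h were opposite, and the test of the change between the times passed (limma, Benjamini-Hochberg). The probe A_55_P2085165, at chr10:78006479-78006538 on mm9, had log2 signals of -7.46, -7.93 and -7.59 in oleic acid brains at 3 h, against -4.24 and -3.61 in serum brains. At 4 h it had -6.54, -4.50 and -5.15 in oleic acid brains, against -7.35 and -7.50 in serum brains. The difference was -3.73 ± 0.63 at 3 h and 2.03 ± 0.63 at 4 h, a change of -5.76 ± 0.89 (limma adjusted p = 0.0225). At 3 h its signal exceeded background in 0 of 3 oleic acid brains and 2 of 2 serum brains, which makes it at least 2.91-fold lower in oleic acid brains, and at 4 h in 1 of 3 oleic acid brains and 0 of 2 serum brains.

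The long non-coding transcript probed at chr7:71220828-71220887 on mm9 had -7.46, -7.93 and -7.59 in oleic acid brains at 3 h, against -5.16 and -3.90 in serum brains. At 4 h it had -4.57, -3.11 and -4.54 in oleic acid brains, against -7.35 and -7.01 in serum brains. The difference was -3.13 ± 0.68 at 3 h and 3.11 ± 0.68 at 4 h, a change of -6.23 ± 0.96 (limma adjusted p = 0.0225). At 3 h its signal exceeded background in 0 of 3 oleic acid brains and 1 of 2 serum brains. At 4 h it did so in 3 of 3 oleic acid brains and 0 of 2 serum brains. Set against the lowest signal well above background on the oleic acid arrays, its serum mean at 3 h was 1.92-fold higher. That is no lower bound, since 1 of the 2 serum values was not above background. On each oleic acid array at 3 h the values of both transcripts were equal to 2 decimals, at the bottom of the signal range. The exact differences, their SE and the p therefore rest partly on values not above background and are no measure of size. Among the groups at 3 h and 4 h, A_55_P2085165 was above background throughout only in serum at 3 h. The chr7 transcript was so only in oleic acid at 4 h. Those are the groups where each was high, so the probe filter and the contrast share values, and the passing test is no independent support. After normexp background correction the 3 h differences of the transcripts were -1.0 and -0.87. For A_55_P2085165 that is smaller than its bound of 2.91-fold, so the bound too depends on the background correction.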

How the results depend on the processing

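Dim genes depend on the background correction. The count of genes passing limma's adjusted test at 3 h was 0, and 2 with slide as a fixed block (Txlnb higher, a chr12 transcript lower), with only the 5 arrays fitted (A_55_P2085165 and the chr12 transcript, lower) and with array weights (Txlnb higher, A_55_P2085165 lower). It ranged from 0 to 6 when single arrays were left out, with 6 without serum replicate 1, Midn and Map4k5 among them, and 1 without serum replicate 2. Unadjusted counts were 1219, against 1830 after normexp, 777 after median scaling, 708 with the slide block and 610 on slide 3, and 415 without serum replicate 1 to 2218 without serum replicate 2, with 446 without oleic acid replicate 3.

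Against the other times the count was 0, but 4 with the slide block and 0 to 12 with arrays left out (12 without serum replicate 2). Against 1.5 h it was 0, but 12 with the slide block, 158 with array weights, whose estimate did not fully converge, and 0 to 20 with arrays left out (20 without serum replicate 2). Against 4 h it was 2, but 0 after normexp, in the deposited value table, with genes above background on all 5 arrays and with trend and robust options, 1 with the slide block and array weights, and 0 to 6 with arrays left out. Lists with at least 3 in 4 members one way numbered 23 of 47, 13 after normexp, 12 with the slide block, 12 on slide 3, 33 after median scaling, which moved the median of all genes to 0.13, and 12 to 21 with arrays left out. Of the 10 higher and 10 lower genes with the smallest p an unadjusted p under 0.05 was found for 20, for 11 when only the 4 arrays of slide 3 were fitted, and for 17 to 20 with arrays left out.

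Signs turned after normexp for Trim30d (-0.0016), Icam1 (-0.24), Il1b (-0.27), Ccl3 (-0.085), S100a8 (-0.037), Ect2 (-0.143), Fam186b (-0.143), Slc25a37 (0.036) and Gfap (0.0096). They turned with the mean of all probes for Flt1 (-0.52), Cpt1a (-0.037), Tfrc (-0.145) and Aqp4 (0.084), for Tfrc also after quantile normalization (-0.0089) and in the deposited value table (-0.023), and after median scaling for S100a9 (0.055), Hspa1a (0.072), Slc25a37 (0.078) and Gfap (0.082). With the slide block or slide 3 alone S100a8 was -0.21, Gfap 0.028 and Aqp4 0.059, and S100a8 was -0.028 with slide as a random block and -0.017 with array weights. With arrays left out, Icam1 ranged from -0.24 to 0.69, Nfkbia from -0.0079 to 0.53, S100a8 from -0.34 to 0.34, S100a9 from -0.46 to 0.36, Hspa1a from -0.18 to 0.15, Angptl4 from -0.54 to 0.29, Gfap from -0.20 to 0.16, Aqp4 from -0.34 to 0.059, Fech from -0.095 to 0.35, Scgb1a1 from -0.53 to 1.31, Sftpc from -0.25 to 1.2, Slc25a37 from -0.13 to 0.073, Tfrc from -0.013 to 0.052 and Mt2 from -0.11 to 0.41. The cause of these changes was not tested.

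Replicate numbers were not treated as pairs. Deviations of same-numbered arrays from their group means correlated at 0.187 and 0.327 at 3 h and between -0.62 and 0.39 at other times. In a group of 2 arrays these deviations mirror each other, so the check cannot decide whether the samples were paired. With the replicate number as a block, 0 genes passed at 3 h, 1157 had an unadjusted p under 0.05, 21 lists leaned one way, and 2 genes passed against 4 h.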
